A study of Mus musculus with 32 samples.

Results

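Osm, Il11 and Saa1 are 3 mouse genes of the gp130 cytokine and acute-phase response, described here in the lungs of mice that were given dust of the World Trade Center, called WTCPM in the labels. They were found by their symbols among the 26305 annotated genes of the deposited expression table, and each had 1 gene identifier. The lungs came from 16 male wild-type C57BL/6J mice of 6 to 8 weeks, in 4 groups of 4: WTCPM with rosoxacin, a quinolone antibiotic, at 5 mg/kg, WTCPM with dexamethasone, a synthetic glucocorticoid, at 0.1 mg/kg, WTCPM with no drug, and healthy controls with neither dust nor drug. The dust was gathered on and around the main debris pile at Ground Zero shortly after the towers fell. The sources used here do not give the dust dose, the route, the time from exposure to collection, or whether the controls received a vehicle. Both of a mouse's 2 sequencing lanes were deposited, 32 libraries in all.

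Oncostatin M (Osm) and interleukin 11 (Il11) are secreted cytokines of the interleukin 6 family. Each signals through a complex of its own receptor chain and the shared chain gp130, which activates Janus kinases and the transcription factor STAT3. Osm is made mainly by myeloid cells and T cells, and Il11 mainly by fibroblasts and epithelial cells. Serum amyloid A1 (Saa1) is an acute-phase apolipoprotein, made mostly in the liver and also in lung epithelium, whose gene is induced by interleukin 6 and interleukin 1 through STAT3, C/EBP factors and NF-kB. The level of a gene in whole lung is a sum over cells, so a change in the number of cells that make the RNA and a change in the RNA per cell cannot be told apart.

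On the mm10 build, Osm (ENSMUSG00000058755.3) lies at chr11:4236420-4241026 on the plus strand, Il11 (ENSMUSG00000004371.14) at chr7:4772373-4782859 on the minus strand and Saa1 (ENSMUSG00000074115.5) at chr7:46740497-46742980 on the minus strand, with positions from GENCODE M21 and identifiers as the deposited table gives them. No other annotated gene overlaps any of them. The 250 bases before a gene's start, from RefSeq on GRCm38.p6, are given here for Il11, Saa1 and Saa2, the neighbouring paralogue of Saa1, because the start of Il11 that the values match and the nearness of the Saa pair bear on how the values are read. They are printed on the strand of the gene, with motif matches in capitals.
Il11, chr7:4778142-4778391, minus strand: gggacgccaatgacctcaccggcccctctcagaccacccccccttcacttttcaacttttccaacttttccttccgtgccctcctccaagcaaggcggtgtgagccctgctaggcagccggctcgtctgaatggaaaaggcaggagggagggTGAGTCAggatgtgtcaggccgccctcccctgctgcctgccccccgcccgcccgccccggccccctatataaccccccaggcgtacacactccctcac
Saa1, chr7:46742981-46743230, minus strand: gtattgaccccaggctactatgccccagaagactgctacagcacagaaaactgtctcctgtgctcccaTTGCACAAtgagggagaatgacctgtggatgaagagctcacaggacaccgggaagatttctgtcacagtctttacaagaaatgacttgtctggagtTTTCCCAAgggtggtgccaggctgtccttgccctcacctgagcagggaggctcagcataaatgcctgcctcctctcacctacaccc
Saa2, chr7:46751583-46751832, plus strand: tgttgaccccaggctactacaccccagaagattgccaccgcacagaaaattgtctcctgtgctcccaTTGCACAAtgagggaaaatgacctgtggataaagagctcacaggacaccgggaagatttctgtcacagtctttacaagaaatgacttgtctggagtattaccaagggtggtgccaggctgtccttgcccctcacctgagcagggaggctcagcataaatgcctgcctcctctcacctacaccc

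The motifs searched on both strands were AP-1 (TGANTCA), STAT (TTCNNNGAA), C/EBP (TTNNGNAA) and the TATA box (TATAAA). The Il11 window holds an AP-1 match that begins 98 bases before the start, and 6.75% of all 32851 promoter windows of that length hold such a match. The Saa1 window holds 2 C/EBP matches, which begin 182 and 86 bases before the start, and the Saa2 window holds the first of them, 183 bases before its start. A C/EBP match is common, being present in 36.8% of windows. None of the other letters searched were found in these 3 windows. The Saa1 and Saa2 windows are 94.8% identical.

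Saa1 and Saa2 are also close in their transcripts. Their spliced transcripts, of 609 and 606 bases, are 93.9% identical, and their intron-retaining, single-exon transcripts, of 2446 and 2443 bases, are 96.7% identical. Of all 50-base stretches, the read length in the labels, 14.8% of the spliced and 32.1% of the intron-retaining Saa1 transcript occur unchanged in the transcripts of another gene, nearly always Saa2. The sources used here do not say how reads that match both genes were assigned, so the split between Saa1 and Saa2 is uncertain. The transcripts of Osm share no 50-base stretch with another gene, and 3.42% of the stretches of the 1949-base Il11 transcript are shared.

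Levels are in FPKM, the number of fragments scaled to transcript length and to sequencing depth. Most of the signal lies in 28335 assembled loci without gene names, and the annotated genes hold 0.114% of all FPKM, so that many familiar genes have no value under their own identifier. None of 14 airway and alveolar epithelial markers and 1 of 8 endothelial markers has one, and the lung label could not be checked from them. All values of the 3 genes are below 1 FPKM per mouse, and low values were read against a regular step per library, of which 30.2% to 37.0% of them came within 0.05. A step fixed beforehand would take 10% of evenly spread values, but the step was the best of many tried on these same values, so these shares are a description. If a step is a read, the libraries hold 17440000 to 28030000 reads each, and the FPKM of a mouse for Osm is worth 17.9 to 59.1 reads, that of Il11 2.202 to 19.5 reads, and that of Saa1 0.500 to 48.2 reads. The rosoxacin libraries carry the lowest library numbers of the labels, 1 to 4, against 5 to 17 for WTCPM, so the drug and whatever this number stands for cannot be told apart.

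Osm, the cytokine, was highest in lungs with dust alone. Its level was 0.251, 0.255, 0.415 and 0.213 FPKM in the 4 rosoxacin mice, 0.480, 0.341, 0.294 and 0.310 FPKM in the dexamethasone mice, 0.691, 0.500, 0.484 and 0.538 FPKM in the WTCPM mice, and 0.490, 0.220, 0.196 and 0.360 FPKM in the controls. Every mouse given either drug was below every mouse with dust alone. However, the highest dexamethasone mouse, at 0.480 FPKM, was just under the lowest WTCPM mouse, at 0.484 FPKM. Of genes averaging at least 0.1 FPKM, 8.95% lay wholly below WTCPM with rosoxacin and 2.33% with dexamethasone. The share below WTCPM with both drugs was not computed. The highest control mouse reached the WTCPM range, so WTCPM and control overlapped in FPKM. The means were 0.284 ± 0.0899 FPKM with rosoxacin, 0.356 ± 0.0846 FPKM with dexamethasone, 0.553 ± 0.0948 FPKM with WTCPM and 0.316 ± 0.136 FPKM in controls (SD, n = 4 each). The 3 groups other than WTCPM overlapped each other.

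**Figure D1:**
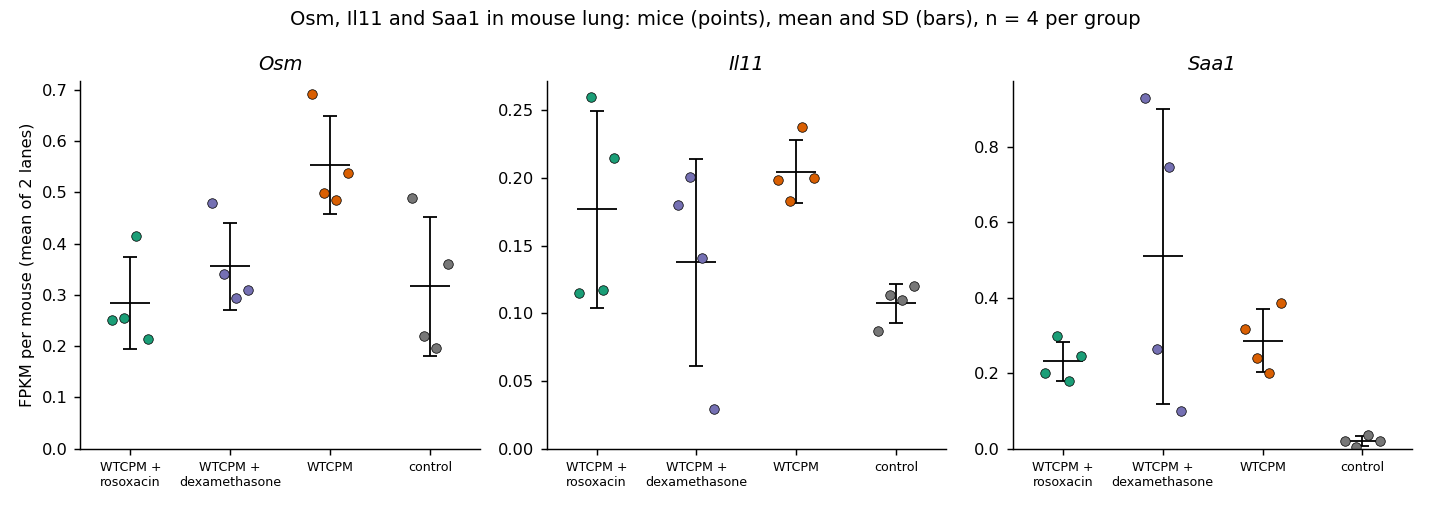
FPKM of Osm, Il11 and Saa1 in each mouse (points), with the group mean and SD (bars), for 4 mice in each of the groups WTCPM with rosoxacin, WTCPM with dexamethasone, WTCPM and control. Osm is highest in the WTCPM mice (0.484 to 0.691 FPKM), Il11 is above control in every WTCPM mouse, and Saa1 is above control in all mice given dust.

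Il11, the stromal and epithelial cytokine, differed most clearly between dust alone and control. Rosoxacin mice had 0.115, 0.260, 0.117 and 0.215 FPKM, dexamethasone mice 0.180, 0.201, 0.141 and 0.0295 FPKM, WTCPM mice 0.198, 0.183, 0.238 and 0.19998 FPKM, and controls 0.0868, 0.113, 0.110 and 0.120 FPKM. Every WTCPM mouse was above every control. Both drug groups were scattered and overlapped WTCPM as well as control: with rosoxacin a pair of mice lay near the controls and a pair within or above the WTCPM range. The means were 0.177 ± 0.0726 FPKM with rosoxacin, 0.138 ± 0.0764 FPKM with dexamethasone, 0.205 ± 0.0233 FPKM with WTCPM and 0.107 ± 0.0144 FPKM in controls (SD, n = 4 each). The WTCPM mean was 1.90 times that of control.

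The values of Il11 fit a single form of the gene. The deposited table has 2 rows for Il11, of which the second is at 0 in all 32 libraries. The first gave whole reads, within 0.05 of a read, in 12 of the 28 libraries above 0 if its length is the 1949 bases of the protein-coding transcript that ends at base 4772373, in 6 if it is 990 bases and in 2 if it is 1059 bases, the lengths of the other protein-coding transcripts. The 1949-base transcript begins at base 4778141, the start whose promoter window is printed above, and the other transcripts begin upstream of it. The identity of the row rests on this fit of lengths, since the table does not name transcripts of these genes. Il11 was listed at 0 in 4 libraries, 1 of rosoxacin, 2 of dexamethasone and 1 of control, and in each the other lane of the same mouse was above 0.

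Saa1 showed the widest difference of the 3 genes. It reached 0.201, 0.299, 0.180 and 0.244 FPKM in rosoxacin mice, 0.927, 0.265, 0.745 and 0.100 FPKM in dexamethasone mice, and 0.318, 0.240, 0.1999 and 0.386 FPKM in WTCPM mice. Control lungs were close to 0, with 0.0202, 0.00377, 0.0367 and 0.0208 FPKM, and 3 of their 8 libraries were listed at 0. Every mouse given dust was above every control. Of genes averaging at least 0.1 FPKM, 1.86% lay wholly above control with WTCPM, 2.15% with rosoxacin and 1.35% with dexamethasone. The share above control in all 3 groups together was not computed. The means were 0.231 ± 0.0523 FPKM with rosoxacin, 0.509 ± 0.390 FPKM with dexamethasone, 0.286 ± 0.0827 FPKM with WTCPM and 0.0204 ± 0.0134 FPKM in controls (SD, n = 4 each). Summed over mice, Saa1 was worth 88.4 reads with rosoxacin, 117 with dexamethasone and 113 with WTCPM, against 9.80 in controls, so the size of the ratio rests on few control reads.

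The high mean and the wide spread of Saa1 in FPKM with dexamethasone came largely from 1 lane in each of 2 mice. Saa1 has 2 rows in the table. The first is above 0 in 29 of 32 libraries, and its values gave whole reads in 8 of them with the 2446 bases of the intron-retaining transcript, against 2 with the 609 bases of the spliced, protein-coding transcript. The second row is above 0 in 3 libraries, all with dexamethasone: 1.45 FPKM in lane 2 of mouse 1, 1.22 FPKM in lane 2 of mouse 3 and 0.0396 FPKM in lane 1 of mouse 4. In the other lane of mice 1 and 3 the second row is at 0, while the first row has 0.341 and 0.203 FPKM. Rosoxacin, WTCPM and control mice have Saa1 values in the first row alone. If that row is the intron-retaining transcript, the difference of WTCPM and rosoxacin from control is not shown for the protein-coding transcript.

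A read counts for more FPKM in a shorter transcript, so the lanes were set side by side in reads. With 609 bases for the second row, the length of the only other annotated transcript of Saa1, both rows of dexamethasone mouse 1 are worth 21.4 reads in lane 1 and 26.8 reads in lane 2, and those of mouse 3 are worth 13.3 and 24.7 reads. Lanes that differ by more than 4 times in FPKM thus differ by less than 2 times in reads. Taken as depth-scaled reads, that is FPKM times the length of the transcript in kilobases, Saa1 averaged 0.565 ± 0.128 with rosoxacin, 0.625 ± 0.305 with dexamethasone, 0.6997 ± 0.202 with WTCPM and 0.0498 ± 0.0328 in controls (SD, n = 4 each). The second row itself gave whole reads in 0 of its 3 libraries at 609 bases, where it is worth 22.7, 19.9 and 0.462 reads, and in 0 of 3 at 2446 bases, so its length is assumed and not fitted. On this scale the dexamethasone mean is below that of WTCPM, the opposite of the order in FPKM, and the 2 groups overlap on both scales. Dexamethasone still has the widest spread of the 4 groups, from 0.209 in mouse 4 to 0.938 in mouse 1. All mice given dust are above all controls on this scale too. Only the dexamethasone mice could have changed place, since the second row is at 0 in all others. The scale was chosen after the rows were seen.

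**Figure D2:**
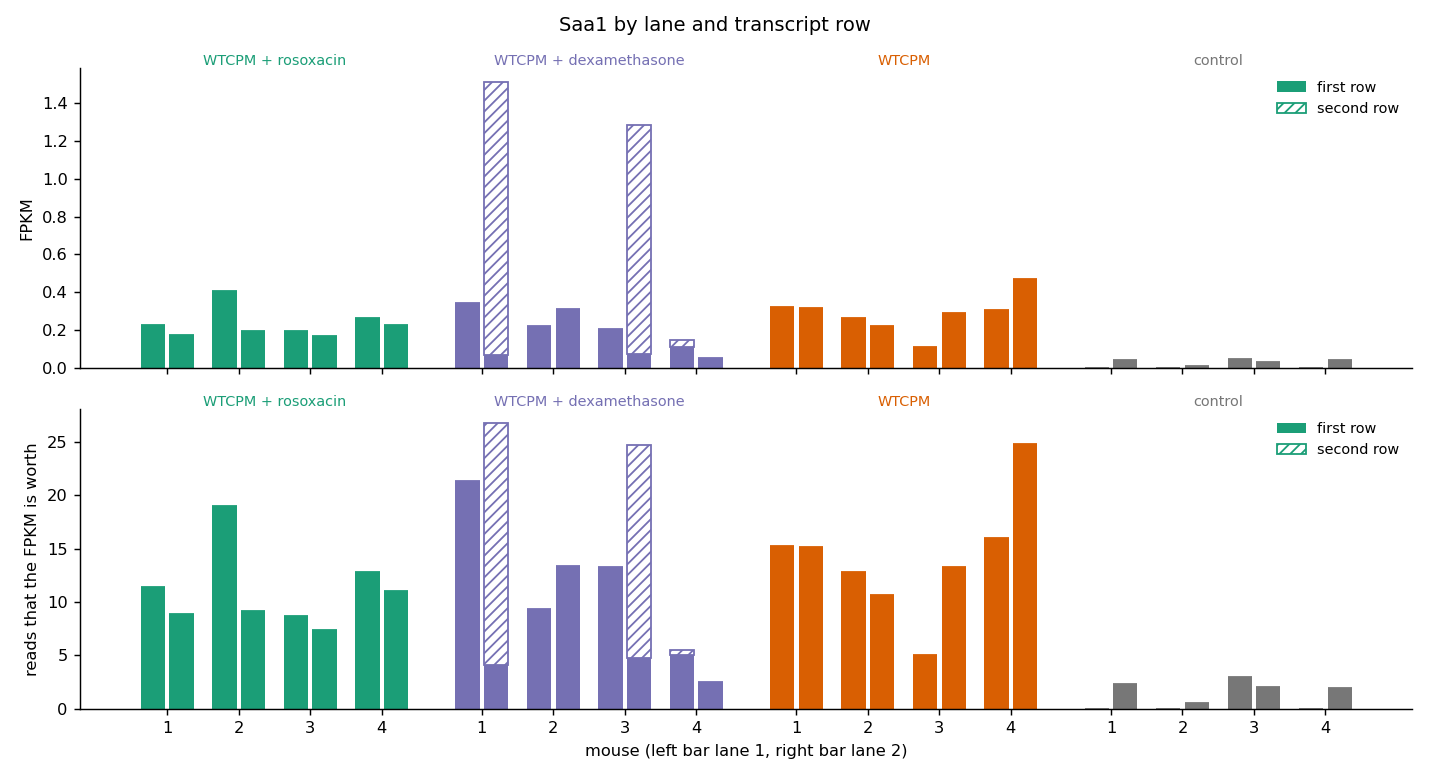
Saa1 in each of the 32 libraries, as FPKM (upper panel) and as the number of reads that the FPKM is worth (lower panel), with the first transcript row filled and the second hatched; the bars of a mouse are lane 1 and lane 2. The tall FPKM bars of dexamethasone mice 1 and 3 are mostly second row (1.45 and 1.22 FPKM), and in reads both lanes of these mice are closer.

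Osm has values in both of its rows, the second in 32 libraries and the first in 16. The fit of lengths did not separate its protein-coding transcript of 2272 bases from a noncoding one of 773 bases: in the 16 libraries with the first row at 0, the second gave whole reads in 5 with the longer length and in 3 with the shorter. The lanes of a mouse differed for Osm too. Lane 2 was above lane 1 in all 4 WTCPM mice, 3 of 4 rosoxacin mice, 2 of 4 dexamethasone mice and 2 of 4 controls. The widest gap was in WTCPM mouse 2, with 0.177 FPKM in lane 1 and 0.823 FPKM in lane 2. That lane 1 value lay below lane 1 of all controls, all dexamethasone mice and most rosoxacin mice. The log2 change of Osm between WTCPM and control was 0.33 in lane 1 alone and 0.96 in lane 2 alone. With 773 bases assumed for the first row and 2272 for the second, Osm was also taken as depth-scaled reads. The ranges were 0.448 to 0.835 with rosoxacin, 0.593 to 1.077 with dexamethasone, 1.034 to 1.512 with WTCPM and 0.446 to 0.953 in controls. WTCPM thus lay above control and rosoxacin and overlapped dexamethasone. Other genes were not put on this scale, so their share is not known.

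**Figure D3:**
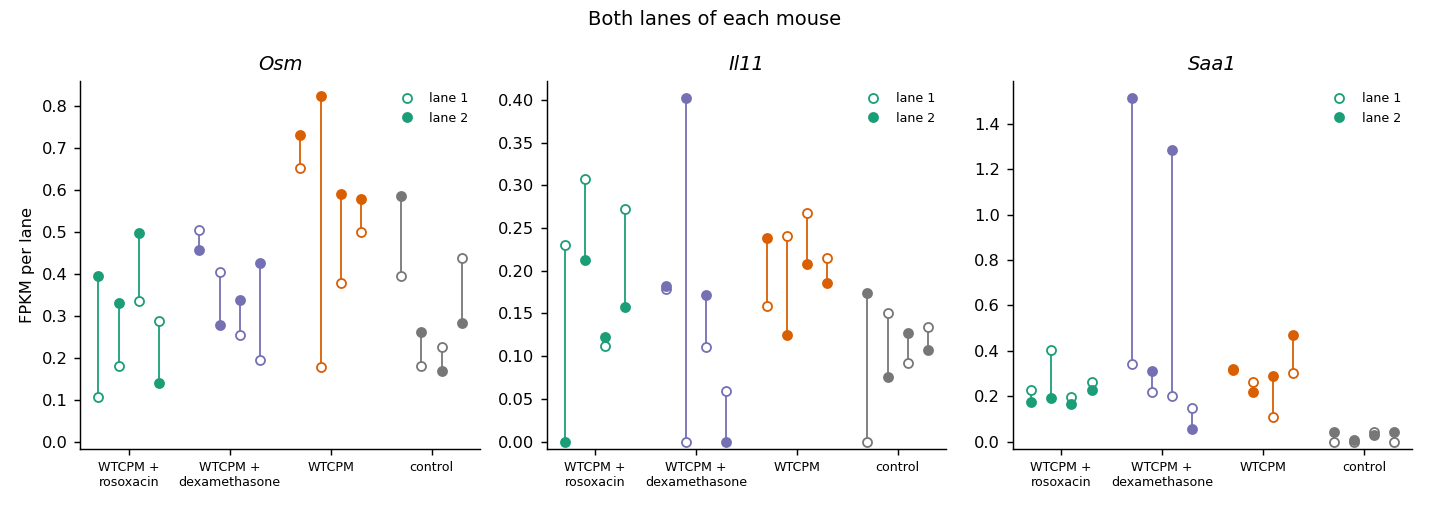
FPKM of Osm, Il11 and Saa1 in lane 1 (open) and lane 2 (filled) of each mouse, joined by a line, for 4 mice per group. The lanes of a mouse lie far apart for Osm in WTCPM mouse 2, for Il11 where a lane is at 0, and for Saa1 in dexamethasone mice 1 and 3 (1.51 and 1.29 FPKM in lane 2).

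Fitted differences between the groups are given on the scale of log2(FPKM + 0.1), which understates changes of such low values. They come from limma, a linear model with a moderated variance, run over the 2749 annotated genes that averaged at least 0.1 FPKM, with Benjamini-Hochberg adjustment over these genes and a threshold of 0.05. All 3 genes passed that filter. They were selected on measured values of these same mice, the FPKM of the 4 groups as known from earlier results, so their differences are a description, and the comparisons share the WTCPM or the control mice.

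The antibiotic was judged against dust with no drug. The log2 change was -0.78 for Osm (SE 0.24), -0.17 for Il11 (SE 0.27) and -0.21 for Saa1 (SE 0.39). Osm was below WTCPM in every mouse, which holds for 8.95% of the tested genes in this comparison, and the median tested gene itself was lower with rosoxacin by a log2 change of -0.16. None of the 3 genes passed limma's threshold, while 0.109% of tested genes passed upward and 0.437% downward, and 431 genes had an unadjusted p under 0.05. Osm did pass in 2 of 32 other settings, at an adjusted p of 0.0120 after rescaling to TPM and of 0.0461 with all loci in the limma fit. Its adjusted p ranged from 0.0120 to 0.493 over these settings. Rescaling to TPM divides by the total FPKM of a library, 921375 to 1329968 with rosoxacin and 738440 to 808587 with WTCPM. It also moved Il11 to -0.47 and Saa1 to -0.54, and 270 genes passed under it, against 15 without it.

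For dexamethasone with dust against dust alone, the log2 change was -0.53 for Osm (SE 0.24), -0.42 for Il11 (SE 0.27) and 0.40 for Saa1 (SE 0.39). Osm was again below WTCPM in every mouse in FPKM, as were 2.33% of tested genes. In depth-scaled reads the groups overlapped, with 1.077 in dexamethasone mouse 1 and 1.034 in WTCPM mouse 3. No gene passed limma's threshold, 0% upward and 0% downward, and 148 had an unadjusted p under 0.05. The value for Saa1 was -0.24 in depth-scaled reads and -0.53 in the first row alone. The direction thus depends on the scale.

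For WTCPM against control, the log2 change was 0.70 for Osm (SE 0.24), 0.55 for Il11 (SE 0.27) and 1.66 for Saa1 (SE 0.39). Il11 and Saa1, 2 of the 3 genes, were above control in every mouse, where 1.86% of tested genes were. No gene passed limma's threshold, 0% upward and 0% downward, and 141 had an unadjusted p under 0.05. The mean of Saa1 was 14.1 times that of control in FPKM, and its log2 change was 2.41 in depth-scaled reads. Saa1 had an adjusted p of 0.264 from limma in FPKM and passed the threshold in 3 of 33 other settings: at an adjusted p of 0.00220 in depth-scaled reads, 0.0139 in its first row alone and 0.0358 at a pseudocount of 0.01 FPKM. Its adjusted p ranged from 0.00220 to 0.758 over these settings, and it passed in 0 of the 16 fits that left out a mouse. The second row is at 0 in all WTCPM and control mice, so their depth-scaled reads are FPKM times a constant. The 0.1 added on both scales then weighs less, which raises the log2 change. In the first row alone the change was still 1.66, with an SE of 0.25 against 0.39. Only dexamethasone values differ there, through the shared estimate of spread. These 3 passes are therefore not separate evidence of a difference.

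The drug groups were also set against the controls. With rosoxacin and dust, the log2 change from control was -0.09 for Osm, 0.38 for Il11 and 1.45 for Saa1, and with dexamethasone and dust it was 0.17 for Osm, 0.13 for Il11 and 2.07 for Saa1. Saa1 was above control in every mouse of both drug groups, which was so for 2.15% of tested genes with rosoxacin and 1.35% with dexamethasone. Saa1 passed limma's threshold in rosoxacin against control, at an adjusted p of 0.0496, where 0.655% of tested genes passed upward and 2.66% downward. The call sat at the threshold: it held in 10 of 33 other settings, with adjusted p from 0.00455 to 0.312, and in 2 of the 16 fits that left out a mouse. With the library number as a covariate the log2 change of Saa1 was 1.96 (SE 0.56), against 1.45 (SE 0.39) without it, with an adjusted p of 0.282 from limma, and 0 genes passed in this comparison, against 91 without it. In dexamethasone against control none of the 3 genes passed, with an adjusted p of 0.0734 for Saa1 from limma, where 0.0364% of tested genes passed upward. Saa1 did pass there in 5 of 33 other settings, with adjusted p from 0.00158 to 0.844 over all of them. The lowest came without dexamethasone mouse 4, where the log2 change was 2.51.

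**Figure D4:**
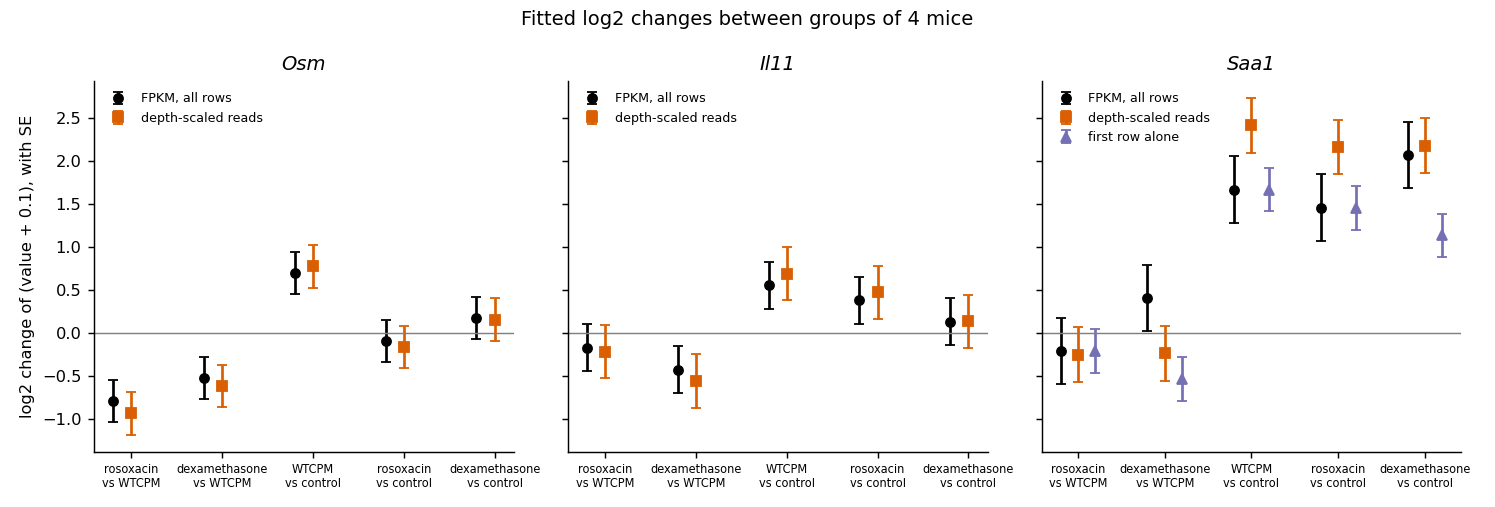
Fitted log2 changes (points) with SE (bars) of Osm, Il11 and Saa1 in 5 comparisons of 4 mice against 4, from FPKM over all rows, from depth-scaled reads, and for Saa1 from the first row alone. Osm is negative in both comparisons of a drug with WTCPM, Saa1 is positive in all comparisons with control, and Saa1 with dexamethasone against WTCPM changes sign between the scales (0.40 in FPKM, -0.24 in depth-scaled reads).

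Across the 16 mice the 3 genes followed each other loosely. Pearson's r of log2(FPKM + 0.1) was 0.23 between Osm and Il11, 0.31 between Osm and Saa1 and 0.53 between Il11 and Saa1. These are descriptions, since the mice share groups and depth. The most similar patterns were sought among 749 tested protein-coding genes. Taking the highest r of so many genes over 16 mice gives high values by selection, so those r are descriptions too.

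The genes most like Osm were G6pd2 (r = 0.859), a glucose-6-phosphate dehydrogenase gene, Slc29a2 (r = 0.823), a nucleoside transporter, and Gpr55 (r = 0.717), a lipid-sensing receptor. G6pd2 averaged 0.183 ± 0.0294 FPKM with rosoxacin, 0.225 ± 0.0611 FPKM with dexamethasone, 0.352 ± 0.0447 FPKM with WTCPM and 0.177 ± 0.0593 FPKM in controls (SD, n = 4 each). It is an intronless relative of G6pdx, and its reads are hard to tell from those of that gene. Among those most like Il11 were Gpr85 (r = 0.679), an orphan receptor, and Dok7 (r = 0.628), an adaptor of the muscle kinase MuSK.

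The genes most like Saa1 were Acod1 (r = 0.744), the enzyme that makes itaconate in activated myeloid cells, Stra6l (r = 0.708), a retinol-binding protein receptor, and Asprv1 (r = 0.684), a protease of skin and of neutrophils. Acod1 averaged 0.123 ± 0.0910 FPKM with rosoxacin, 0.188 ± 0.120 FPKM with dexamethasone, 0.105 ± 0.0788 FPKM with WTCPM and 0.0122 ± 0.0244 FPKM in controls (SD, n = 4 each). The lowest Acod1 value was 0 in the rosoxacin, WTCPM and control groups, so its r rests partly on values at the floor. With Saa1 taken as depth-scaled reads, r was 0.701 for Acod1, 0.740 for Stra6l and 0.572 for Asprv1.

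The rest of the pathway was mostly out of reach. Of 12 ligands of the gp130 family, 3 have a value under their own identifier, Osm, Il11 and Il6, and the first 2 reached the filter. None of the 9 receptors and none of 16 STAT3 target genes has one. Il6, the founding cytokine of the family, was below the filter and had a different order. It measured 0.677, 0.144, 0.198 and 0.0533 FPKM in the rosoxacin mice. In lane 2 of rosoxacin mouse 1, 0.577 of the 0.784 FPKM came from a transcript row that was at 0 in every other library. In the dexamethasone group 3 of 4 mice were at 0 and the other at 0.0656 FPKM, and in the WTCPM group 3 of 4 were at 0 and the other at 0.0395 FPKM. The controls had 0.130, 0.0553, 0.131 and 0.0332 FPKM. All rosoxacin mice were thus above all WTCPM mice for Il6, and rosoxacin and control overlapped. Over all genes tested, which do not include Il6, 2.18% lay wholly above WTCPM with rosoxacin. That share does not describe genes as low as Il6.

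Socs1, the suppressor of cytokine signalling that blocks Janus kinases, was the only tested gene of 14 in the JAK-STAT list. It averaged 0.574 ± 0.213 FPKM with rosoxacin, 0.461 ± 0.140 FPKM with dexamethasone, 0.472 ± 0.163 FPKM with WTCPM and 0.702 ± 0.321 FPKM in controls (SD, n = 4 each), and it did not pass limma's threshold in any of the 5 comparisons. Its groups overlapped. Among 32 acute-phase genes, 7 have a value and only Saa1 reached the filter. Saa2 averaged 0.0556 ± 0.0811 FPKM with rosoxacin, 0.0262 ± 0.0226 FPKM with dexamethasone, 0.0262 ± 0.0253 FPKM with WTCPM and 0.0148 ± 0.0207 FPKM in controls, and 6 of the 16 mice were at 0. A2m, the protease inhibitor alpha-2-macroglobulin, averaged between 0.0770 and 0.103 FPKM in the 4 groups, with overlapping ranges. None of 13 glucocorticoid response genes, 8 serum amyloid A receptors or 8 hepatocyte markers has a value under its own identifier, and the NF-kB inducer list has 1, below the filter.

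Some markers of other cell types also differed in level between the groups. Of 14 neutrophil markers 6 have a value, and their summed level ranged from 0.837 to 1.69 FPKM with rosoxacin, 1.29 to 2.39 FPKM with dexamethasone, 0.606 to 0.924 FPKM with WTCPM and 0.479 to 1.08 FPKM in controls. Nearly all of this was Cxcr2, a chemokine receptor, and Asprv1, while Mpo and Stfa2 were at 0 in all mice and Ly6g was at 0 in all mice of the rosoxacin and WTCPM groups. Asprv1 was 0.644 ± 0.131 FPKM with dexamethasone and dust, against 0.179 ± 0.0362 FPKM in controls (SD, n = 4 each, limma adjusted p = 0.0247), and was the only gene tested that passed in that comparison. Against WTCPM, at 0.273 ± 0.0404 FPKM, its log2 change was 0.98 with a limma adjusted p of 0.391. No list gene passed in dexamethasone against control without dexamethasone mouse 1, 2 or 3 or without control mouse 2, 3 or 4.

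Xcr1, a chemokine receptor of dendritic cells and the only tested gene of 8 in their list, was 0.301 to 0.469 FPKM with rosoxacin, 0.398 to 0.6999 FPKM with dexamethasone, 0.526 to 0.637 FPKM with WTCPM and 0.374 to 0.458 FPKM in controls. Prox1, a regulator of lymphatic endothelium, ranged from 0.137 to 0.600 FPKM over all mice. The sum of Lep and Hcar1, the tested 2 of 9 adipocyte markers, was 0.127 to 0.530 FPKM with rosoxacin, 0.231 to 0.488 FPKM with dexamethasone, 0.0953 to 0.137 FPKM with WTCPM and 0.366 to 1.90 FPKM in controls. The mean of this sum was lowest with WTCPM, whose range overlapped that of rosoxacin. None of these genes passed limma's threshold. How far neutrophil, dendritic or adipose content contributes to the levels of Osm, Il11 and Saa1 was not tested. The lists of macrophage, lymphocyte, fibroblast and epithelial markers have no value under their own identifiers.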

How the data were processed

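Per the labels' protocols, lung RNA of 16 mice was taken up in TRIzol and read on an Illumina HiSeq. The submitters' processing notes name StringTie 2.1.5, HISAT2 2.2.1 and build mm10, without settings or annotation. The authors deposited FPKM per transcript. Here rows were summed per Ensembl gene and lanes averaged per mouse. Genes averaging at least 0.1 FPKM over all mice were fitted with limma 3.58.1 (R 4.3.3) on log2(FPKM + 0.1), all 4 groups together, and the procedure was tested on simulated data. FPKM are not counts, and only 30.2% to 37.0% of low values in a library came within 0.05 of a whole read, so no count test was run. Reads were estimated as FPKM times transcript length over the step of each library, the candidate step that the low values of single-transcript genes fell on most often. The labels do not say that mouse numbers pair mice across groups, and correlations of same-numbered mice were -0.16 to 0.30. The 3 genes and the gene lists were chosen with earlier results of these data known. Named genes are the 3 members, for each the 3 protein-coding genes with the highest r, and list genes that passed, or else up to 2 tested per list; 1 gene similar to Il11 is not reported here. Alternatives were scalings, pseudocounts, filters, single lanes, a library-number covariate, a replicate block, other limma settings and each mouse left out. Promoters are RefSeq windows of GRCm38.p6, aligned with Biopython 1.88.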

Additional observations from a re-analysis of the deposited data

Results flagged for a closer look

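Il6 was flagged because a single mouse stood apart in groups of 4. In the dexamethasone group the highest mouse had 0.0656 FPKM and in the WTCPM group the highest had 0.0395 FPKM, while the other 3 mice of each group were at 0. With 3 mice at exactly 0, any value above 0 in the other mouse stands apart in this measure, so the usual rate of about 1 group in 20 by chance does not apply, and values this low are worth few reads. No mouse stood apart in this way for Osm, Il11 or Saa1.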

How the results depend on the processing

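Of 790 values recomputed under alternatives, 690 stayed within 1 SD of the mice or, for counts, within 1.5 times of the reported value. For the others the cause was not tested. At a pseudocount of 1 FPKM the log2 changes from control were 0.24 for Osm, 0.12 for Il11 and 0.33 for Saa1 with WTCPM, 0.27 for Saa1 with rosoxacin and 0.53 for Saa1 with dexamethasone, and Osm was -0.28 in rosoxacin against WTCPM, as a larger pseudocount shrinks low values by construction. At a pseudocount of 0.01 FPKM, Saa1 was 3.37 with WTCPM, 3.09 with rosoxacin and 3.78 with dexamethasone, against control. Rescaled to TPM, Osm was -1.17 in rosoxacin against WTCPM. In lane 1 alone, Osm was 0.33 in WTCPM against control, and Il11 was -0.86 in dexamethasone against WTCPM and 0.81 in rosoxacin against control, where lane 2 gave -0.084. As depth-scaled reads, added after seeing the data, Saa1 was 2.41 with WTCPM and 2.16 with rosoxacin against control, and -0.24 in dexamethasone against WTCPM. Both changes from control are larger than in FPKM because the same 0.1 is added to larger values. In its first row alone, also added later, Saa1 was -0.53 in dexamethasone against WTCPM and 1.13 in dexamethasone against control. Il11 has no value at a filter of 0.2 FPKM, which it does not reach.

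Counts of called genes moved more. In WTCPM against control, with 0 genes reported, 2 genes passed at a pseudocount of 0.01 FPKM and 2 with no filter, and 1 passed at a pseudocount of 1 FPKM, in lane 1, with the replicate block, without the trend and with all loci in the fit. For dexamethasone against WTCPM, also 0, 1 gene passed at a pseudocount of 1 FPKM and 1 without the trend. For rosoxacin against WTCPM, with 15, the counts were 5 with no filter, 41 at a filter of 0.2 FPKM, 270 in TPM, 6 after quantile normalisation, 0 in lane 1, 3 with the library number as a covariate, 3 with the compared groups alone, 23 with quality weights and 128 with all loci. For rosoxacin against control, with 91, they were 21 at a pseudocount of 1 FPKM, 7 with no filter, 262 in TPM, 44 with median-of-ratios scaling, 36 with quantile normalisation, 7 in lane 1, 16 in lane 2, 0 with the library number, 24 with the compared groups alone and 203 with all loci. For dexamethasone against control, with 1, they were 2 at a pseudocount of 0.01 FPKM, with no filter, in TPM, in lane 2 and with quality weights, and 0 after both other scalings, in lane 1, with the replicate block, with the compared groups alone and with all loci. Leaving out each mouse gave 0 to 1 genes in WTCPM against control, 2 to 24 in rosoxacin against WTCPM, 11 to 122 in rosoxacin against control, 0 in dexamethasone against WTCPM and 0 to 3 in dexamethasone against control. Among list genes other than the 3 members, 0 were reported as called except for 1 in dexamethasone against control. There 0 were called with median-of-ratios scaling or quantile normalisation, in lane 1, with the replicate block, with the compared groups alone and with all loci. In WTCPM against control 1 was called at a pseudocount of 0.01 FPKM and with the replicate block, in rosoxacin against WTCPM 1 in TPM, and in rosoxacin against control 1 in TPM and 1 with all loci. Leaving out a mouse gave 0 to 1 of them in WTCPM against control and in dexamethasone against control, and 0 in the others.

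The mouse numbers share no stated source, and with them as a replicate block the log2 changes of the members are the same by construction. The values of all 3 genes rest on few reads, and those of Saa1 in control on 0.500 to 5.01 reads a mouse, which limits the precision of every ratio to control.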
